A study of Solanum commersonii and Solanum tuberosum with 8 samples.

Results

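Of the 11366 potato clones on the arrays, 229 (2.01%) had a ratio of 2-fold or more below wild type in Solanum tuberosum plants expressing AtCBF3, with a change of under 1.5-fold in Solanum commersonii carrying the same transgene and no 2-fold decrease in either species after 7 d of cold. They were chosen from the deposited log2 ratios of these 4 columns: at or below -1 in S. tuberosum 35S::AtCBF3, under 0.585 in size in S. commersonii 35S::AtCBF3, and above -1 in both 7 d columns. Values in these columns are therefore given as a description. The columns at 2 h and 24 h of cold played no part in the choice.

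Leaf RNA of the cultivated potato S. tuberosum (St) and of the wild potato S. commersonii (Sc) was compared on 2-colour arrays, in a study that set the cold response of each species beside its response to AtCBF3. Plants grew at 25°C for 3 weeks under a day of 16 h and a night of 8 h. The transgenic groups were St 35S::AtCBF3, from 2 independent lines, and Sc 35S::AtCBF3, from 3 independent lines, each set against wild-type plants of its species in the warm. The cold groups were wild-type plants of each species moved to 2°C at 8 h after dawn for 2 h, 24 h or 7 d, in 3 independent experiments. Plants in the cold for 2 h had wild type warm for 2 h as control. Those in the cold for 24 h and for 7 d had a common control, wild type warm for 24 h, so the 7 d plants were older than their controls. Cold plants received a light intensity of 50 and warm plants 350 in the labels' unit, so light differed together with temperature. The 35S promoter, from a plant virus, is active in most tissues at most times. The labels' genotype field for the St transgenic sample names Sc, while its title, source and organism name St; it was taken as St.

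Per clone there was 1 value in each column, made from 3 slides or, for St 35S::AtCBF3, from 2. There is no spread between replicates, so none of the differences below was tested and no p-value is given. Ratios are read as cold or transgenic over warm wild type, the likely direction from the channel labels; if they ran the other way, every lower clone would be a higher one. The central spread over all clones (SD from the median absolute deviation) was 0.48 in the St 35S::AtCBF3 column and 0.37 in the Sc 35S::AtCBF3 column. A 2-fold decrease was thus 2.08 central spreads in St and 2.70 in Sc. Fewer cells of a type and less RNA per cell cannot be told apart in whole leaves, and the values are ratios, so the tissue could not be checked by its markers.

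CBF3, also called DREB1A, is an AP2/ERF transcription factor that is induced by cold in Arabidopsis and binds the CRT/DRE element in promoters of cold-responsive genes. Plants that express CBF factors constitutively switch on many of these genes without cold, and in Arabidopsis strong overexpression slows growth. S. commersonii gains freezing tolerance during cold acclimation, while S. tuberosum is known for its lack of this capacity. The clones carry identifiers only, with no gene names in the file, so the members' roles are not described here.

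In St 35S::AtCBF3 the members ranged upward from -4.28 to just under the bound of -1, with a median log2 ratio of -1.26, or 2.39-fold lower. The middle of the distribution was shallow, from -1.53 at the lower quartile to -1.12 at the upper. At least 4-fold lower were 21 members, and 49 were at least 3-fold lower. Another 93 lay within 0.2 of the bound. Over all clones the median of this column was 0.01, and 7.28% were at least 2-fold lower, the share from which the members were drawn. The 3 members nearest the bound were at -1.00425, -1.00203 and -1.00023. The 3 nearest clones that met every other bound but missed this one were at -0.99987, -0.99937 and -0.99715. Within 0.1 of the bound lay 52 clones inside and 67 outside, so its place decides membership for many clones with nearly equal ratios.

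The members made up 27.7% of the 827 clones at or below -1 in St 35S::AtCBF3. Of these 827, 404 changed by under 1.5-fold in Sc 35S::AtCBF3, 203 were 1.5-fold to 2-fold lower there and 182 at least 2-fold lower. A further 17 were 1.5-fold to 2-fold higher in Sc and 21 at least 2-fold higher. Among the 404, 85 were also at least 2-fold lower after 7 d of cold in both species, 76 in St alone and 14 in Sc alone, which leaves the 229. The share lost to a 7 d decrease was larger among clones that were also low in Sc: 48 of the 182 clones at least 2-fold lower in both transgenic columns stayed above -1 at 7 d in both species. The median of the members in St 35S::AtCBF3, -1.26, was closer to the bound than that of the 85 clones lower at 7 d in both species, -1.74, and than that of the 48 clones, -1.54.

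**Figure D1:**
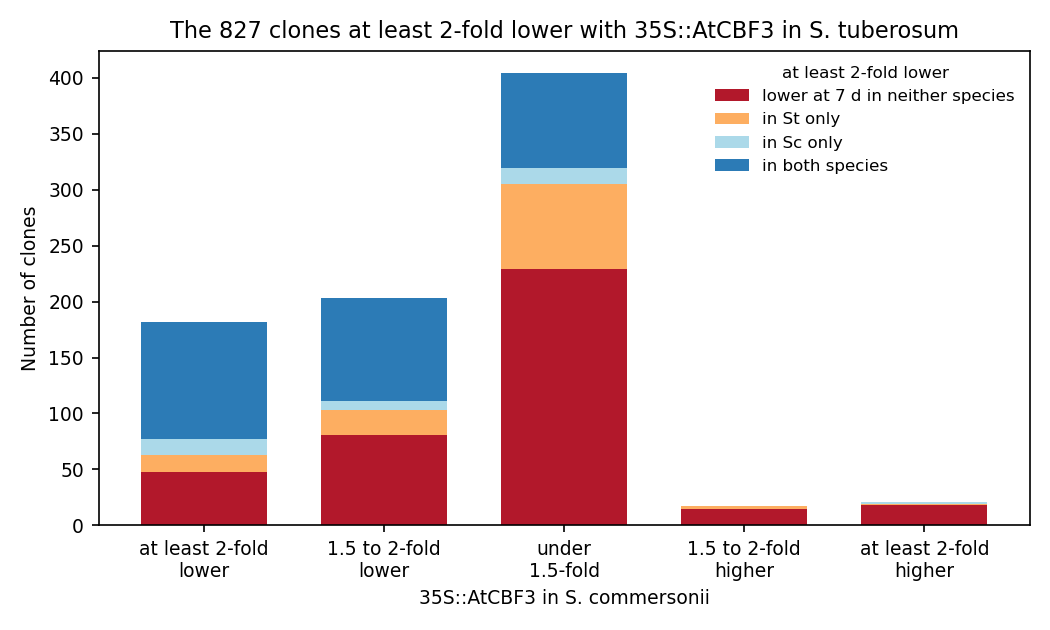
Number of clones (vertical axis) among the 827 at or below -1 in the S. tuberosum 35S::AtCBF3 column, by their ratio with 35S::AtCBF3 in S. commersonii (horizontal axis) and by whether they were at least 2-fold lower after 7 d of cold (colours, St for S. tuberosum and Sc for S. commersonii). The members are the 229 clones in red in the middle bar of 404.

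The rule allows a ratio of any sign in Sc 35S::AtCBF3, but the members did not lie evenly around 0 there. Their ratios ran from -0.58 to 0.55 with a median of -0.22, and 166 of the 229 (72.5%) were below 0. For comparison, the 8605 clones that met the other 3 bounds, whatever their ratio in St 35S::AtCBF3, had a median of 0.01 in this column and 49.0% below 0. All 827 clones at or below -1 in St 35S::AtCBF3, members included and not bounded in Sc, had a median of -0.53 and 84.8% below 0. The lean was thus not particular to the members. At or below -0.3 were 94 members, 120 were between -0.3 and 0.3, and 15 were at or above 0.3. The lean towards lower ratios was found in the members less than 3-fold lower in St. The 93 members between -1 and -1.2 in St had a median of -0.28 in Sc, and the 87 from there to 3-fold lower had -0.25. The 28 members 3-fold to 4-fold lower and the 21 at least 4-fold lower had medians of -0.0027 and -0.04.

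The gap between the species with the transgene was under 2-fold for many members. The difference St minus Sc in the log2 ratio with 35S::AtCBF3 ranged from -4.05 to -0.43 over the members, with a median of -1.09. It reached 2-fold, with St the lower, for 131 members (57.2%, with 6.77% of all clones). For the other 98 the 2 ratios lay on different sides of the bounds while differing by less than 2-fold. Across the 229 members the transgenic columns had a Pearson's r of -0.17 and a Spearman's rho of -0.18, against 0.48 and 0.40 over all clones. The members' values are those of a narrow band, since the rule bounds both columns.

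**Figure D2:**
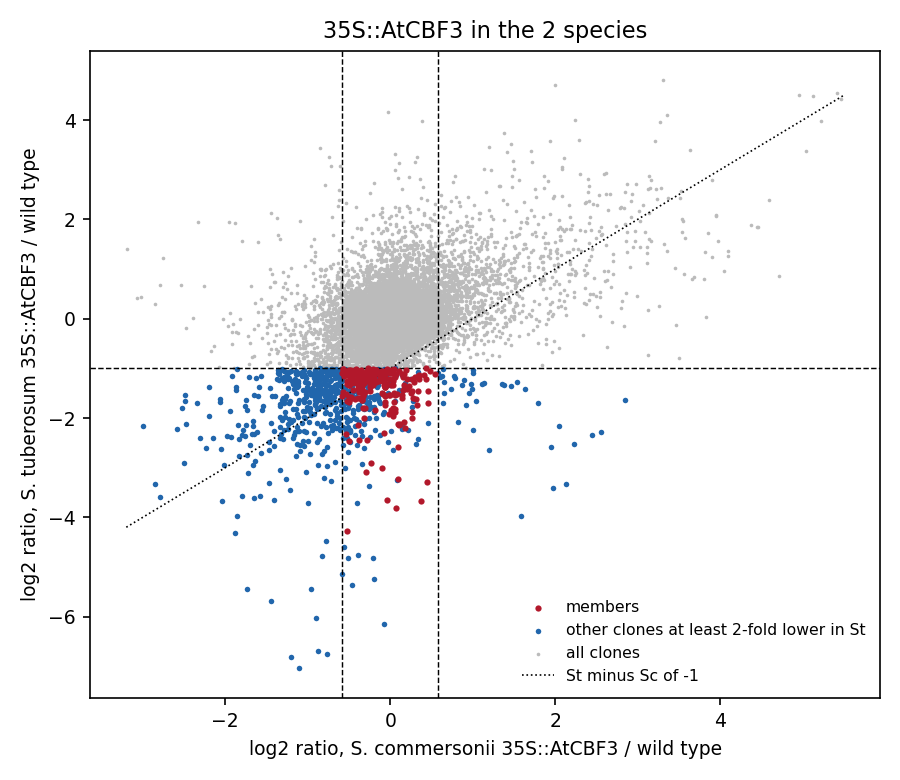
Log2 ratio with 35S::AtCBF3 against wild type in S. commersonii (horizontal axis) and S. tuberosum (vertical axis) for all 11366 clones, 1 point each, with the 229 members in red, the other clones at least 2-fold lower in S. tuberosum in blue and the bounds dashed. The members fill a band under -1, more densely left of 0 than right of it, and 131 of them lie on or below the dotted line where S. tuberosum is 2-fold below S. commersonii.

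After 7 d of cold most members had ratios below 0 in both species, within the 2-fold decrease that the rule allowed. Their median was -0.47 in St (1.38-fold lower) and -0.33 in Sc (1.26-fold lower). The medians over all clones were -0.0075 and -0.0054, and over the 8605 clones that met the other 3 bounds 0.02 and 0.02. Below 0 were 192 members in St (83.8%) and 183 in Sc (79.9%), against 47.0% and 46.6% of the 8605 clones. Of all 827 clones at or below -1 in St 35S::AtCBF3, not bounded at 7 d, 89.4% and 88.6% were. At least 1.5-fold lower were 89 members in St (38.9%, with 13.8% of all clones and 5.65% of the 8605). In Sc 62 members were (27.1%, with 11.9% and 4.39%). Both decreases were found in 42 members (18.3%, with 8.84% and 2.08%). That in St alone was found in 47 (20.5%, with 5% and 3.57%) and that in Sc alone in 20 (8.73%, with 3.10% and 2.31%). Neither was found in 120 (52.4%, with 83.1% and 92%). All clones include those at least 2-fold lower at 7 d, which the bounds removed from the members and from the 8605. Since these columns were bounded by the rule, the values describe how close to the bound the members lay: the lowest were at -0.99 in both species, and 13 members in St and 4 in Sc were within 0.1 of it.

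At least 2-fold higher at 7 d were 3 members in St (1.31%), where 4.04% of all clones were, and 3 in Sc (1.31%), where 3.10% were. They were the same 3 clones. Their ratios at 7 d were 1.74 to 2.84 in St and 1.19 to 2.47 in Sc. Each was also at least 2-fold higher at 24 h in both species, at 2.40 to 4.30 in St and 2.73 to 3.50 in Sc. With 35S::AtCBF3 in St these clones were at -1.80 to -1.33, and in Sc at -0.50 to -0.07. Across the members the 7 d columns of the species had a Pearson's r of 0.76 and a rho of 0.61, against 0.82 and 0.75 over all clones, with no control in common between the species.

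**Figure D3:**
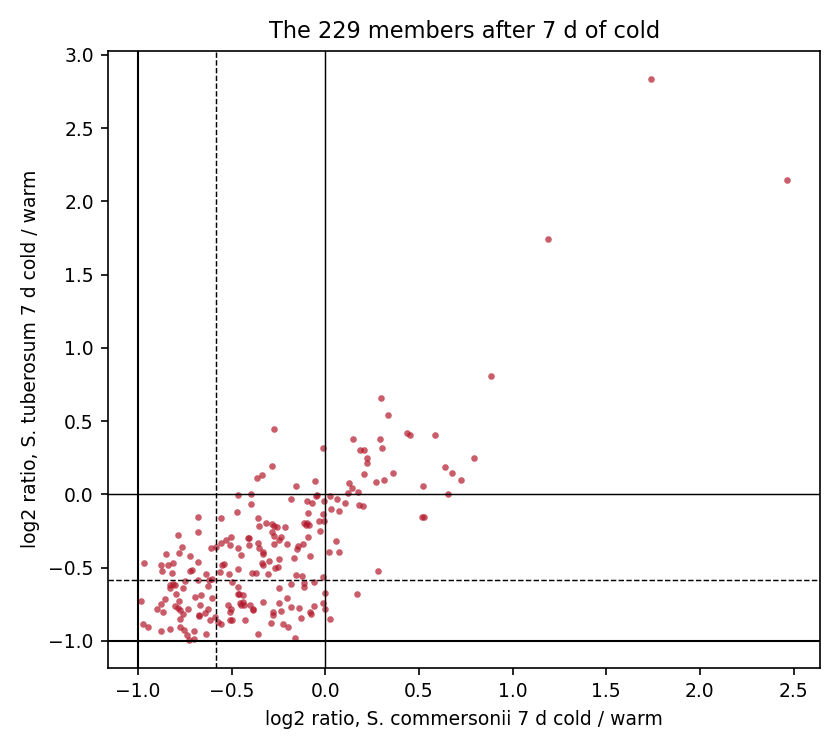
Log2 ratio of the 229 members after 7 d of cold in S. commersonii (horizontal axis) and S. tuberosum (vertical axis), 1 point per clone, with 0 and the bound of -1 as solid lines and a 1.5-fold decrease dashed. Most points lie in the lower left, 175 of the 229 being below 0 in both species, and 3 clones stand apart at the upper right.

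At 2 h of cold, which the rule did not use, the members had ratios close to those of clones in general. Their median was 0.03 in St and -0.0021 in Sc, where all clones had -0.0031 and 0.01. In St 11 members were at least 2-fold higher (4.80%, with 7.87% of all clones), and in Sc 20 were (8.73%, with 10.9% of all clones). No member was at least 2-fold lower at 2 h in either species, and 0.334% of all clones in St and 0.150% in Sc were. At 1.5-fold, 26 members were higher in St (11.4%, with 11.9% of all clones) and 6 lower (2.62%, with 1.62%). In Sc 34 were higher (14.8%, with 14.2%) and 0 lower, with 0.774% of all clones. Apart from the 1.5-fold lower clones in St, these shares of the members lay near the background or below it.

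At 24 h the medians were again close to 0, at -0.0021 in St and -0.02 in Sc, against 0.01 and 0.0033 over all clones. At least 2-fold higher were 31 members in St (13.5%, with 11.9% of all clones) and 13 in Sc (5.68%, with 2.65% of all clones). At least 2-fold lower were 3 members in St (1.31%, with 1.43% of all clones) and 6 in Sc (2.62%, with 1.24% of all clones). The St shares were near those of all clones, and the Sc shares were about 2 times those of all clones in each direction on small counts. Of the 8605 clones that met the other 3 bounds, 11.6% were higher in St and 1.42% in Sc, and 0.244% were lower in each. Beside these clones, the members' shares lower at 24 h were larger in both species, still on small counts. At 1.5-fold, 46 members were higher in St (20.1%, with 17.1% of all clones) and 10 lower (4.37%, with 5.81%). In Sc 23 were higher (10%, with 9.06% of all clones) and 15 lower (6.55%, with 4.72%). At 3-fold, 3 members were higher at 2 h in St (1.31%, with 3.25% of all clones) and 16 at 24 h (6.99%, with 7.94%). In Sc 12 were 3-fold higher at 2 h (5.24%, with 7.94%) and 6 at 24 h (2.62%, with 0.651%). No member was 3-fold lower at 24 h, as 0.238% of all clones were in St and 0.282% in Sc. Across the members the species had a Pearson's r of 0.77 and a rho of 0.64 at 24 h, and of 0.78 and 0.62 at 2 h. Over all clones these were 0.70 and 0.69 at 24 h, and 0.86 and 0.61 at 2 h. Each 24 h column shares its warm control with the 7 d column of its species, which the rule bounded.

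**Figure D4:**
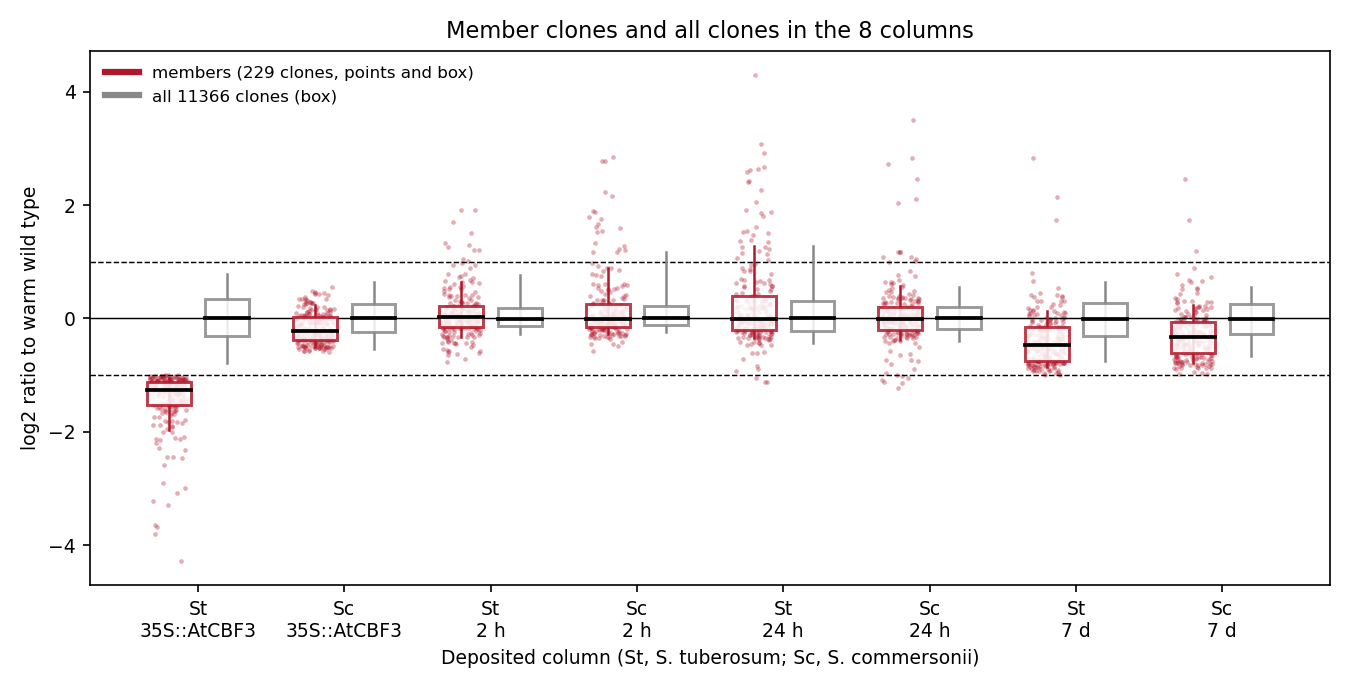
Log2 ratio to warm wild type (vertical axis) of the 229 members (red, 1 point per clone, with a box) and of all 11366 clones (grey box) in the 8 columns, with boxes from the lower to the upper quartile, the median as a black line, whiskers from the 10th to the 90th percentile and dashed lines at 2-fold. The member medians are -1.26 and -0.22 with 35S::AtCBF3 in S. tuberosum and S. commersonii and -0.47 and -0.33 at 7 d, and lie near 0 at 2 h and 24 h, where a tail of points reaches above 2-fold.

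Most members stayed below 2-fold at every time in the cold. In all 6 cold columns 190 of the 229 (83.0%) changed by less than 2-fold, as 74.2% of all clones did, and the rule had already removed the 2-fold decreases at 7 d from the members. Of the 8605 clones that met the other 3 bounds, 83.6% stayed below 2-fold. At the smaller size of 1.5-fold, 69 members (30.1%) stayed below it in all 6 cold columns, against 52.7% of all clones and 62.8% of the 8605. These 69 clones had a median of -1.16 in St 35S::AtCBF3 and of -0.21 in Sc 35S::AtCBF3. With a species gap of at least 2-fold required as well, 31 members remained (13.5%, with 1.15% of all clones and 0.581% of the 8605). They are the clones that fit the description of low with AtCBF3 in St alone and flat in the cold most strictly. The rule bounded both transgenic columns and both 7 d columns, so it sets these shares in part.

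The 33 members that were at least 2-fold higher at 2 h or 24 h in some column (14.4%, with 14.7% of all clones) fell into a few patterns. An early pattern, higher at 2 h in both species, was found in 10 members (4.37%, with 7.15% of all clones). Their ratios at 2 h were 1.01 to 1.92 in St and 1.18 to 2.85 in Sc. At 24 h all 10 were still at least 2-fold higher in St, at 1.38 to 3.07, while in Sc they ranged from 0.03 to 1.08 and 2 of the 10 passed 2-fold. Over all clones 11.9% were at least 2-fold higher at 24 h in St and 2.65% in Sc, so fewer were in Sc there too. The shares among all clones with the early pattern are not given here. By 7 d the medians of the 10 members were -0.43 in St and -0.19 in Sc. With 35S::AtCBF3 these 10 were at -1.67 to -1.06 in St and -0.41 to 0.17 in Sc.

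A total of 12 members were higher at 24 h in both species (5.24%, with 2.11% of all clones). In St they ran from 1.36 to 4.30 at 24 h and in Sc from 1.02 to 3.50. Their median with 35S::AtCBF3 was -1.52 in St and -0.07 in Sc. The rule made every member low in St 35S::AtCBF3, so the opposite directions in St follow from how these clones were picked. For 4 of the 12 the ratio at 2 h was under 1.5-fold in both species (1.75% of the members, with 0.748% of all clones). These 4 were at 1.5 to 2.67 in St and 1.08 to 2.46 in Sc at 24 h, lay between -0.32 and 0.38 at 7 d, and stood at -2.90 to -1.098 in St 35S::AtCBF3. Of the 31 members higher at 24 h in St, 20 had also been higher at 2 h in at least 1 of the species (8.73% of the members, with 9.33% of all clones). The other 11 had not (4.80%, with 2.58%).

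The members with the deepest decrease in St 35S::AtCBF3 were more often higher at 24 h. In St, 5 of the 21 members at least 4-fold lower (23.8%) and 7 of the 28 that were 3-fold to 4-fold lower (25.0%) were at least 2-fold higher at 24 h. Of the 87 members between 3-fold and a log2 ratio of -1.2, 13 were (14.9%), and of the 93 nearest the bound 6 were (6.45%). Over all clones the share was 11.9%, so the members nearest the bound lay below it. In the Sc column at 24 h the numbers were smaller, with 3, 3, 5 and 2 members from the deepest tier to the shallowest. These were 14.3%, 10.7%, 5.75% and 2.15%, with 2.65% of all clones. The deep tiers rest on few clones, and all tiers are cuts of a column that the rule used. Whether the St transgenic column and the 24 h column share wild-type RNA is not stated, and the difference between these tiers was not tested.

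Lower at 24 h in both species were 3 members (1.31%, with 0.519% of all clones). They lay close together with 35S::AtCBF3, at 2 h and at 24 h, and less so at 7 d. With 35S::AtCBF3 they were at -1.50 to -1.42 in St and 0.21 to 0.34 in Sc. In St they were at -0.61 to -0.53 at 2 h, -1.13 to -1.06 at 24 h and -0.46 to 0.09 at 7 d. In Sc they were at -0.16 to -0.14 at 2 h, -1.14 to -1.05 at 24 h and -0.30 to -0.06 at 7 d. Several clones can carry the same gene, and whether these 3 do is not known here.

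Of the members, 4 are described one by one: the 2 lowest in St 35S::AtCBF3 and the 2 highest by the mean of the 4 columns at 2 h and 24 h. STMCR35 was the lowest, at -4.28 (19.5-fold lower) in St 35S::AtCBF3, against -0.52 in Sc 35S::AtCBF3. In St it was at -0.62, 0.20 and -0.95 at 2 h, 24 h and 7 d of cold, and in Sc at 0.60, 0.10 and -0.36. Its 7 d ratio in St lay just inside the bound. STMHH08 was at -3.81 (14.0-fold lower) in St 35S::AtCBF3 and at 0.07 in Sc 35S::AtCBF3. It stayed at 0.26, 0.16 and -0.61 through the cold in St, and at -0.05, -0.80 and -0.81 in Sc.

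STMHO39 combined the highest mean at 2 h and 24 h with a ratio of -1.74 (3.33-fold lower) in St 35S::AtCBF3 and -0.07 in Sc 35S::AtCBF3. In St it was at 0.41, 4.30 and 2.84 at 2 h, 24 h and 7 d, a peak of 19.6-fold. In Sc it was at 1.90, 3.50 and 1.74 at these times. It is 1 of the 3 members that were still higher at 7 d. STMHX90 belonged to the early pattern, at 1.92, 3.07 and -0.18 in St and at 2.78, 1.02 and -0.0085 in Sc, so that St was highest at 24 h and Sc at 2 h. Its ratio with 35S::AtCBF3 was -1.33 in St and 0.17 in Sc.

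**Figure D5:**
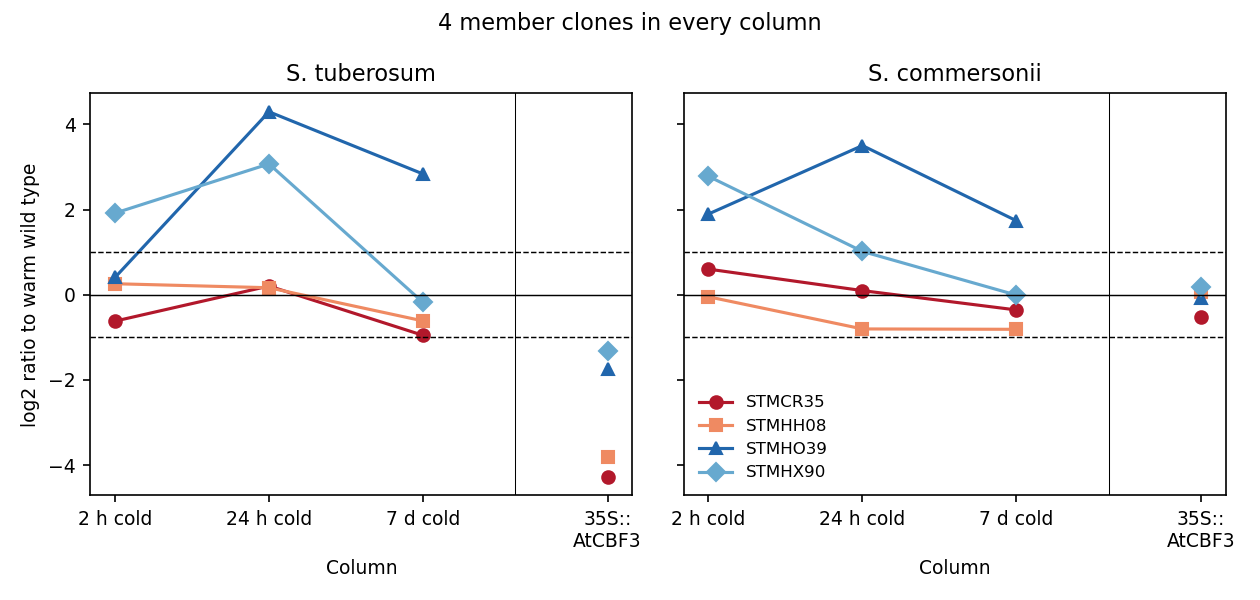
Log2 ratio to warm wild type (vertical axis) of 4 member clones at 2 h, 24 h and 7 d of cold (joined points) and with 35S::AtCBF3 (separate points) in S. tuberosum (left) and S. commersonii (right), with 2-fold dashed. STMHO39 and STMHX90 are above 2-fold at 24 h in both species and below it with 35S::AtCBF3 in S. tuberosum, and STMCR35 and STMHH08 stay within 2-fold in the cold.

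The members were set beside the groups of low clones most like them. The 48 clones at least 2-fold lower in both transgenic columns and above -1 at 7 d were more often higher at 24 h: 16 (33.3%) in St, against 31 members (13.5%), and 11 (22.9%) in both species, against 12 members (5.24%). The 85 clones lower in St 35S::AtCBF3 and at 7 d in both species had medians of -0.24 in St and -0.21 in Sc at 24 h, where the members had -0.0021 and -0.02. The 7 d columns that set these 85 clones apart share their controls with the 24 h columns. In the reverse direction, 74 clones were at least 2-fold lower in Sc 35S::AtCBF3, under 1.5-fold in St 35S::AtCBF3 and above -1 at 7 d. In the transgenic column bounded at 1.5-fold, the members had a median of -0.22 with 72.5% below 0, and the 74 clones -0.09 with 58.1%. The lean below 0 was also present in the 85 clones, at -0.40 with 90.6%, and in the 76 clones lower at 7 d in St alone, at -0.17 with 78.9%. At 7 d the members had medians of -0.47 in St and -0.33 in Sc, the 74 clones -0.08 and -0.18, and the 48 clones -0.33 and -0.54. With 1 value per column none of these differences was tested.

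The members were spread over the array's clone names. They fell in 115 of the 157 blocks of identifiers with the same first 5 characters, with at most 6 in a block, and 8 pairs of members had consecutive numbers. Clones with C as the fourth character of the identifier made up 63 of the members (27.5%) and 13.5% of all clones. These 1538 clones held members at a share of 4.10%, and the other clones at 1.69%. Of the 268 C clones at least 2-fold lower in St 35S::AtCBF3, 63 were members (23.5%), against 27.7% of all 827 such clones. With each column counted separately, lower ratios were more frequent among the C clones in several columns. In St 35S::AtCBF3 17.4% of the C clones were at least 2-fold lower, against 5.69% of the other clones, and in Sc 35S::AtCBF3 5.98%, against 2.66%. At 7 d 15.9% were lower in St, against 4.93%, and 14.2% in Sc, against 4.05%. What the letter stands for is not given in the sources used here, and its part in the membership was not tested.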

How the data were processed

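Leaf RNA carried Cy3 or Cy5 through indirect aminoallyl labelling and was hybridised to 2-colour arrays, per the labels' protocols. The authors deposited 1 log2 ratio per clone and column, combining 3 slides per column, or 2 in the S. tuberosum transgenic column, per the labels' descriptions. The submitters' processing notes name limma. How the background was corrected, values normalized, spots filtered and slides merged is not given in the sources used here. A log2 scale was taken from the values, and the column medians, between -0.0075 and 0.01, show near-centred columns. Centring and direction are not stated. With 3 slides the dyes cannot be balanced. Dim clones are not marked, as no intensities were used here, and the small number of slides sets the precision.

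The table held 11366 clones with 0 missing values, and no filter was applied. Counting used Python 3.11.15 and pandas 2.3.3. Higher and lower mean at least 2-fold unless another size is named. The code of the rule was checked on simulated columns with planted members. Their spread was smaller than in the data and no clone was planted close to the bound of -1. The check therefore says nothing about how sure membership is near the bounds. Members and lists were chosen with earlier results of these data known. Gene lists could not be used without clone names; at most 4 clones are named, the 2 lowest members in S. tuberosum 35S::AtCBF3 and the 2 highest by their mean at 2 h and 24 h. Alternatives were other bounds, other sizes, columns centred or scaled to one spread, means in place of medians, and, chosen after seeing the data, leaving out the C clones. Averaging clones of 1 gene was not run, for want of clone names.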

Additional observations from a re-analysis of the deposited data

Results flagged for a closer look

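At 2 h of cold STMCR35, the member lowest in S. tuberosum 35S::AtCBF3, stood at -0.62 in S. tuberosum and 0.60 in S. commersonii, at least 1.5-fold in opposite directions. It was the only member to do so at 2 h, where 2 of all 11366 clones did (0.0176%). No member did at 24 h, where 17 of all clones did (0.150%). This difference was not tested, since each column holds 1 value.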

How the results depend on the processing

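All results rest on 1 combined value per column. No paired analysis was possible because single slides are not used here, and leaving out a slide was not possible either. Dim clones could not be set apart. A median was taken as moved when it left the 95% order-statistic interval of the reported median, which describes clones and not plants, and a count when it changed by over 1.5 times. Centring the columns (233 members, 226 of them shared) and leaving out the C clones (166 members) moved none of the 17 values. The member count depended most on the bounds: it was 755 at 1.5-fold and 49 at 3-fold in St 35S::AtCBF3, 120 with Sc 35S::AtCBF3 within 0.3, 120 with 7 d decreases under 1.5-fold, and 111 with columns scaled to one spread, 80 of these shared.

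At 1.5-fold in St 35S::AtCBF3 the counts higher at 2 h were 49 in St and 83 in Sc, with 1 lower in St. At 24 h 95 were higher and 6 lower in St, and 22 higher in Sc. Medians were -0.82 in St 35S::AtCBF3 and -0.31 and -0.22 at 7 d in St and Sc. At 3-fold, 1 and 5 clones were higher at 2 h in St and Sc (2.04% and 10.2%). At 24 h 12 and 6 were (24.5% and 12.2%), with 0 lower at 24 h in either. Medians were then -1.92 and -0.0119 with 35S::AtCBF3 in St and Sc, 0.12 at 2 h in Sc and 0.20 at 24 h in St. With Sc 35S::AtCBF3 within 0.3, 2 clones were lower at 24 h in Sc (1.67%). Medians were -0.0614 in Sc 35S::AtCBF3 and -0.31 and -0.20 at 7 d in St and Sc. With Sc 35S::AtCBF3 within 1, 50 of 325 clones were higher at 24 h in St (15.4%), and the Sc 35S::AtCBF3 median was -0.33.

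With 7 d decreases under 1.5-fold, 7 and 11 clones were higher at 2 h in St and Sc (5.83% and 9.17%). At 24 h 3 were lower in Sc (2.5%). The Sc 35S::AtCBF3 median was -0.12, those at 24 h in St and Sc were 0.0635 and 0.0369, and those at 7 d -0.17 and -0.10. With columns scaled to one spread, 1 clone was lower at 2 h in St (0.901%). At 24 h 17 and 8 were higher in St and Sc. These were 15.3% and 7.21% of the smaller set, against 13.5% and 5.68% of the members. Medians were -1.19 in St 35S::AtCBF3, 0.0850 and 0.0635 at 2 h in St and Sc, and -0.54 at 7 d in St. Counting members at 1.5-fold gave 26 higher and 6 lower at 2 h in St, 34 higher at 2 h in Sc, 10 lower at 24 h in St, and 23 higher and 15 lower at 24 h in Sc. At 3-fold, 3 and 12 were higher at 2 h and 16 and 6 at 24 h in St and Sc, and 0 were lower at 24 h in either. Means were -1.43 in St 35S::AtCBF3, 0.10 and 0.19 at 2 h in St and Sc, and 0.25 and 0.0635 at 24 h, above the medians at 2 h and 24 h. Under each of these bounds and scalings the member medians at 7 d stayed below 0 in both species. The rule bounded these columns and the sets share many clones, so this describes the members and was not tested.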
